A study of Mus musculus with 6 samples.

Results

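The S100 genes code for small calcium-binding proteins, and the values described here are those of the 10 members S100a1, S100a3, S100a4, S100a6, S100a8, S100a9, S100a10, S100a11, S100a13 and S100b. They were chosen by gene symbol, taking every array probe set annotated to exactly 1 of these symbols. This gave 12 probe sets for 9 of the 10 genes, out of 20380 probe sets for 12393 genes. The single probe set that carries S100a11 is annotated to other genes as well and was left out, so S100a11 has no value here.

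Gene expression was read with 6 Affymetrix arrays, each holding the RNA of a single tumour. The 3 Bptf KD tumours grew from 4T1, a transplantable mammary carcinoma line of the mouse, after knockdown (KD) of the chromatin remodelling factor Bptf with short hairpin RNAs brought in by a retrovirus, MMLV. The other 3, titled Control, grew from 4T1 control cells, and the sources used here give neither what those cells carried nor whether either line was a clone. In both groups 10000 cells went into the fourth mammary fat pad of mice that the labels name Ifrg2r -/- (NSG), and the tumours were taken at day 21 and freed of necrotic tissue. Lymphocytes are missing from NSG mice while neutrophils and macrophages are kept, so the tissue holds tumour cells and host stroma in shares that are not given. The sources used here do not give the age or sex of the mice.

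S100 proteins carry paired EF-hand calcium-binding loops and mostly act as dimers inside the cell, where calcium lets them grip a partner protein. S100a8 and S100a9 form calprotectin, a complex that is abundant in neutrophils and monocytes, binds zinc and manganese, and signals through Tlr4 and the receptor Ager when it is released. S100a4 binds the non-muscle myosin heavy chain Myh9 and is known for its part in the spread of mouse mammary tumours, and tumour cells, fibroblasts and macrophages make it. S100a10 pairs with the annexin Anxa2, S100a1 is best known from striated muscle, S100a3 from the hair follicle and S100b from Schwann cells, astrocytes and fat cells.

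Most of the family sits side by side. In the RefSeq gene table (GRCm38.p6) 9 of the 10 members lie on chromosome 3, and S100b lies on chromosome 10. S100a1 and S100a13 are direct neighbours, and so are S100a8 and S100a9. RefSeq promoters of the same build, 300 bases from 250 before the annotated start to 50 from it on, were matched for 9 of the 10 members, all but S100a10. The windows of S100a8 (chr3:90668821-90669120, plus strand) and S100a9 (chr3:90695672-90695971, minus strand) are shown because these genes had nearly the same pattern over the tumours. Capitals mark matches to any of 5 motifs, searched on both strands.
S100a8: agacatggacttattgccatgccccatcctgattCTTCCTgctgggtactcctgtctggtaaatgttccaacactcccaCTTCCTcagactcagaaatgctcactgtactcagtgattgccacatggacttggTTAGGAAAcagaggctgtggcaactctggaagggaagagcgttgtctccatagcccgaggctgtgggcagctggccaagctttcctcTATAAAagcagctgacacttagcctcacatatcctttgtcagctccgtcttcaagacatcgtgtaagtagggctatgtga
S100a9: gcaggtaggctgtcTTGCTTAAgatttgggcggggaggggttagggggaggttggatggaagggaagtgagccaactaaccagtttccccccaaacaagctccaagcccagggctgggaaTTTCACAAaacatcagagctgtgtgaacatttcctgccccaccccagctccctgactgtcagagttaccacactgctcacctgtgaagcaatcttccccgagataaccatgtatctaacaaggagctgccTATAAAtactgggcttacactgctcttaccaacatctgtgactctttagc
The motif of C/EBP factors, spelled TTNNGNAA, matched once in S100a8 (bases 134 to 141 of the window) and at 2 places in S100a9 (bases 15 to 22 and 121 to 128). The TATA box motif, TATAAA, matched at bases 221 to 226 in S100a8, before the annotated start, and at bases 251 to 256 in S100a9, where the match begins at the annotated start itself. The motif AGGAAG, for PU.1, matched at 2 places in S100a8 and at none in S100a9, while TGANTCA (AP-1) and TTCNNNGAA (STAT) matched in neither. No matches overlapped. Of 32851 windows of this length, 40.7% held the C/EBP motif, 13.6% the TATA box, 35.4% AGGAAG, 7.81% TGANTCA and 8.30% TTCNNNGAA.

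S100a1 (chr3:90514281-90514580, minus strand) and S100a13 (chr3:90514185-90514484, plus strand) run away from each other from starts 105 bases apart, and their windows are shown because they share 204 bases, marked in capitals, while S100a1 spanned 1.26 log2 units over the tumours and S100a13 0.41. None of the 5 motifs matched in either window.
S100a1: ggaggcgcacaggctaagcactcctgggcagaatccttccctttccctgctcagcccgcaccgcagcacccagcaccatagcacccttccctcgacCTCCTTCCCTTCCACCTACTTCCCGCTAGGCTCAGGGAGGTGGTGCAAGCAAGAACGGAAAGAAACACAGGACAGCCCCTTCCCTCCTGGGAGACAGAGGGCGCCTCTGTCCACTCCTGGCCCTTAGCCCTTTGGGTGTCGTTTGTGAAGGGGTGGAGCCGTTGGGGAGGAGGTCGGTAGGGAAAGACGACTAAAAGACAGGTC
S100a13: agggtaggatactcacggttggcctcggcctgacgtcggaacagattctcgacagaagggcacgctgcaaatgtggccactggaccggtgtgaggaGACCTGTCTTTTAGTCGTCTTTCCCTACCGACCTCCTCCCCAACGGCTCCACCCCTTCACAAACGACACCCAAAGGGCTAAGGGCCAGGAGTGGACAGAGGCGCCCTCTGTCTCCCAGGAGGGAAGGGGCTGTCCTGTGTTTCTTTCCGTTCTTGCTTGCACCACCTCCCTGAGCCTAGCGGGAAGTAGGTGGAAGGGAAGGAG

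Values are log2 expression by RMA, and differences are Bptf KD minus Control. The arrays had medians between 7.59 and 7.69, and limma called 75 of 9249 genes (adjusted p under 0.05). Bptf itself, on its brightest probe set, read 9.60, 9.56 and 9.99 in Bptf KD 1, 2 and 3, against 10.69, 9.77 and 10.59 in Control 1, 2 and 3 (adjusted p = 0.371 in limma). On the other 3 Bptf probe sets Control 2 lay below every Bptf KD tumour, against its label, and its mean correlation with the other controls across genes was 0.936. The same mean within the own group was 0.96 and 0.962 for Control 1 and 3, and 0.984 to 0.987 for the Bptf KD tumours. For these reasons the text speaks of the tumour labelled Control 2 and gives results that rest on it with and without it. The epithelial marker list, for the mammary tumour cells, had means of 10.47 to 10.63 in Bptf KD tumours, against 9.40 to 10.24 in Control tumours. The adipocyte marker list had means of 6.84 to 7.77 in Bptf KD tumours, against 10.55 in the tumour labelled Control 2 and 9.97 and 9.69 in Control 1 and 3, and the fibroblast list set the groups apart likewise, so on both lists that tumour lay with the other controls. The mean of a keratinocyte marker list was 7.14 to 7.24 in Bptf KD tumours, against 9.65 in the tumour labelled Control 2 and 6.85 and 7.08 in Control 1 and 3. Of its 15 listed genes 13 had a probe set and only 5 were bright enough to be tested. Among these Krt15 was so only through the tumour labelled Control 2, with 7.23 there and 5.57 to 6.20 in the others.

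Of the 10 members, 7 passed the filter on dim probe sets (mean over the 6 arrays of at least 6.09), and limma called 0 of these 7, with 1 at an unadjusted p under 0.05. Over all genes 0.811% were called (0.151% higher and 0.660% lower in Bptf KD), and 13.5% had such an unadjusted p (7.65% higher and 5.82% lower). The 7 had a median difference of -0.01, beside 0.06 over all genes tested, with 3 positive and 4 negative. Their median size was 0.28, beside 0.17 over all genes. Without the tumour labelled Control 2 the median was 0.13, beside 0.04 over all genes, with 5 positive and 2 negative. The myeloid pair had the largest positive differences and S100a4 the largest negative one with all tumours and without that one. In a design of 3 against 3 the exact two-sided permutation p cannot go below 0.1, and over the 12 probe sets it ran from that value to 1.

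The tumour labelled Control 2 gave the highest of the 6 values on 9 of the 12 probe sets, where it did so on 28.6% of all probe sets with 1 gene. It lay 1.54 above the mean of Control 1 and 3 for S100a8, 1.42 for S100a9 and 1.20 for S100a1, and 0.09 above it for S100a6. Leaving it out therefore moves every member with a high value there upward in the comparison.

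**Figure D1:**
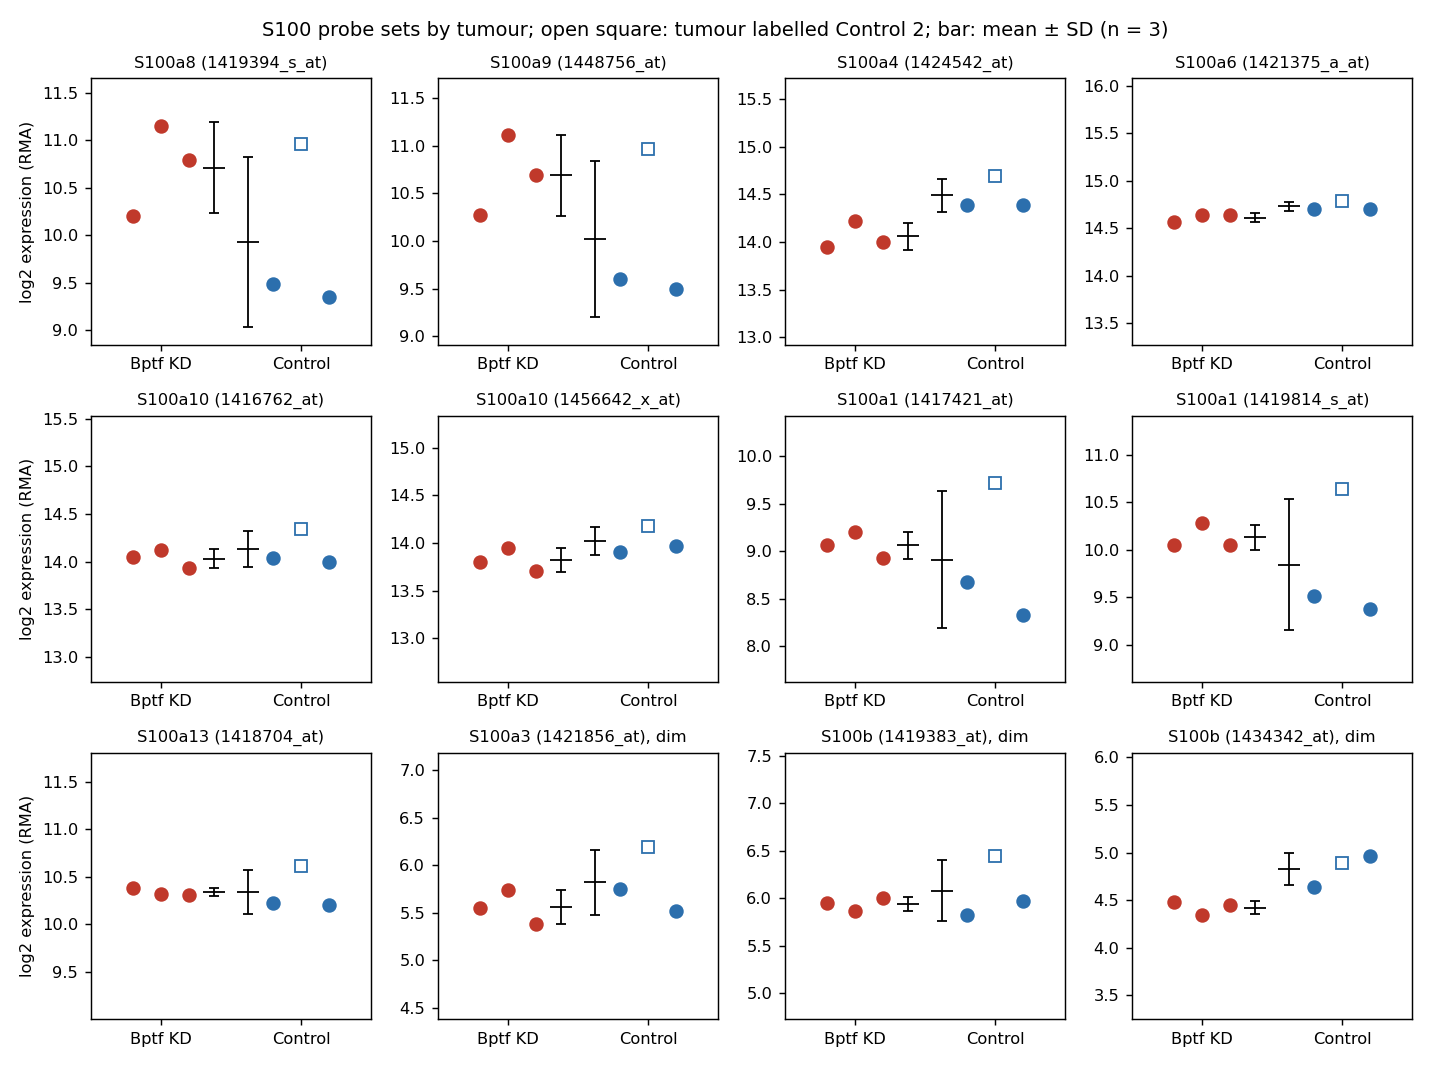
Log2 expression of the 12 S100 probe sets (RMA, vertical axes all 2.8 log2 units tall) in 3 Bptf KD tumours (red, left) and 3 Control tumours (blue, right), with the tumour labelled Control 2 as an open square and black bars for the mean ± SD. S100a8 and S100a9 are spread most, while S100a6 lies between 14.56 and 14.79 in all tumours.

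S100a8 and S100a9, the calprotectin subunits, had higher values in every Bptf KD tumour than in Control 1 and 3, while only Bptf KD 2 lay above the tumour labelled Control 2. S100a8 read 10.20, 11.15 and 10.79 in Bptf KD 1, 2 and 3, against 9.49, 10.96 and 9.35 in Control 1, 2 and 3. The groups overlap through the tumour labelled Control 2 alone, which lay above Bptf KD 1 and 3. The means were 10.71 ± 0.48 in Bptf KD and 9.93 ± 0.89 in Control tumours (SD, n = 3 each), a difference of 0.78 (SE 0.46, 95% interval -0.31 to 1.87) or 1.72-fold. This was short of the threshold of 0.05 (adjusted p = 0.541 in limma), although 4.6% of genes had a larger difference in size. S100a9 read 10.27, 11.12 and 10.69 in the Bptf KD tumours, against 9.60, 10.97 and 9.50 in Control 1, 2 and 3. Its difference was 0.67 (SE 0.42, 95% interval -0.33 to 1.67), 1.59-fold, and did not pass either (adjusted p = 0.571 in limma).

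Without the tumour labelled Control 2 both passed in limma. S100a8 was then 2.45-fold higher in Bptf KD tumours (1.29, 95% interval 0.68 to 1.91, adjusted p = 0.0459 in limma). S100a9 was 2.21-fold higher (1.14, 95% interval 0.59 to 1.70, adjusted p = 0.0480 in limma). The 15 alternatives are changes to the comparison of all tumours, and leaving out this tumour is among them. Across them the adjusted p in limma ran from 0.0222 to 0.875 for S100a8 and from 0.0230 to 0.884 for S100a9. The calls without the tumour labelled Control 2 were not varied in this way. Without that tumour limma called 4.45% of all genes, 1.94% as higher and 2.52% as lower, and 3 of the 7 members, all 3 higher. At an unadjusted p under 0.05 it had 4 of the 7 members and 27.0% of all genes. Since the tumour left out is the control with the highest S100a8 and S100a9, these calls are no independent evidence of a rise. Leaving out any other tumour gave differences of 0.49 to 1.04 for S100a8 and 0.41 to 0.88 for S100a9, none called, with the lowest values without Control 3.

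The 2 genes put the tumours in the same order: Bptf KD 2 was highest, then came the tumour labelled Control 2, Bptf KD 3, Bptf KD 1, Control 1 and Control 3. With each gene centred on its mean over the 6 tumours, the root mean square difference between them was 0.085 log2 units, while S100a8 spanned 1.80 and S100a9 1.62. Each was the nearest of all tested genes to the other. The nearest genes outside the family were Nfe2l3, a transcription factor, at 0.260 from S100a8 and 0.195 from S100a9, and Hebp1, a heme-binding protein, at 0.262 and 0.208. Klhdc8a lay 0.261 from S100a8 and Clec4d, a lectin receptor of myeloid cells, 0.204 from S100a9. The pair sits side by side on the chromosome, and both windows printed above hold a C/EBP motif match, as did 40.7% of all windows. Whether place or motif has a part in the shared pattern was not tested.

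Other neutrophil markers had a median difference of 0.07, beside 0.06 over all genes, and without the tumour labelled Control 2 one of 0.26, beside 0.04 over all genes, with 2 called higher by limma. These 2, Prtn3 and Clec4e, had their highest control value in that tumour, so its omission raises their differences. Of 28 listed genes 22 had a probe set and 15 passed the filter. Of these 9 had positive differences with all tumours, and limma called 0, while 3 were higher and 3 lower with unadjusted p under 0.05. The list mean was 8.26, 8.26 and 8.07 in Bptf KD 1, 2 and 3, against 8.14, 8.59 and 7.99 in Control 1, 2 and 3. It was highest in the tumour labelled Control 2, which was second for S100a8 and S100a9. Wfdc21 (11.61 there, 5.80 to 9.60 in the others) and Chil3 (9.63 there, 5.51 to 7.61 in the others) added most to that height. Lcn2 went the other way, with its lowest value, 8.34, there. The list order thus rests on a few genes with wide ranges. The granule and receptor genes Mmp8, Ltf, Ngp, Elane, Mpo, Cxcr2 and Cd177 lay below the dim level on average, between 4.10 and 6.29 in every tumour.

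Prtn3, a serine protease of granules, read 9.21, 9.07 and 8.60 in Bptf KD tumours, against 7.66, 8.17 and 7.40 in Control 1, 2 and 3. The groups do not overlap, but the difference of 1.22 did not pass (adjusted p = 0.0956 in limma), and passed without the tumour labelled Control 2 (1.43, adjusted p = 0.0211 in limma). Clec4e, a lectin receptor, read 8.54 to 8.94 in Bptf KD tumours, against 6.79 to 8.18 in Control tumours. It differed by 1.25 and by 1.60 without the tumour labelled Control 2 (adjusted p = 0.181 and 0.0214 in limma). That tumour had the highest control value of both Prtn3 and Clec4e, so its omission raises both differences. The calls without it are therefore no independent evidence of a rise. Lcn2, a siderophore-binding protein that epithelial cells also make, read 12.72, 11.82 and 12.40 in Bptf KD tumours, against 11.44, 8.34 and 9.65 in Control 1, 2 and 3. Its lowest value was in the tumour labelled Control 2, opposite to S100a8, and it did not pass (2.50, adjusted p = 0.211 in limma). Wfdc21 differed the other way, by -3.21 (adjusted p = 0.146 in limma), with its highest value, 11.61, in the tumour labelled Control 2.

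The monocyte and macrophage list, for another source of the pair, had 16 genes tested, 11 of them positive. The median of the list was 0.21, beside 0.06 over all genes, with 0 called by limma (unadjusted p under 0.05 for 3 higher and 2 lower). Its mean was 11.62, 11.60 and 11.90 in Bptf KD 1, 2 and 3, against 11.85, 11.71 and 11.66 in Control 1, 2 and 3. The scavenger receptor Cd163 differed by -2.13 and Mrc1 by -0.75 (adjusted p = 0.0637 and 0.136 in limma). The C1q chains C1qb and C1qc differed by 0.40 each (adjusted p = 0.301 and 0.326 in limma). Without the tumour labelled Control 2 the list median was 0.10, beside 0.04 over all genes, and Cd163 was called lower (-1.85, adjusted p = 0.0381 in limma). The mean of the 5 tested keratinocyte genes was highest in the tumour labelled Control 2, at 9.65, against 6.85 to 7.24 in the other tumours. Krt15 among them passed the filter only through that tumour. In bulk tumours fewer cells of a type and less RNA per cell cannot be told apart. The part of any of these cell types in the S100a8 and S100a9 values was not tested.

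**Figure D2:**
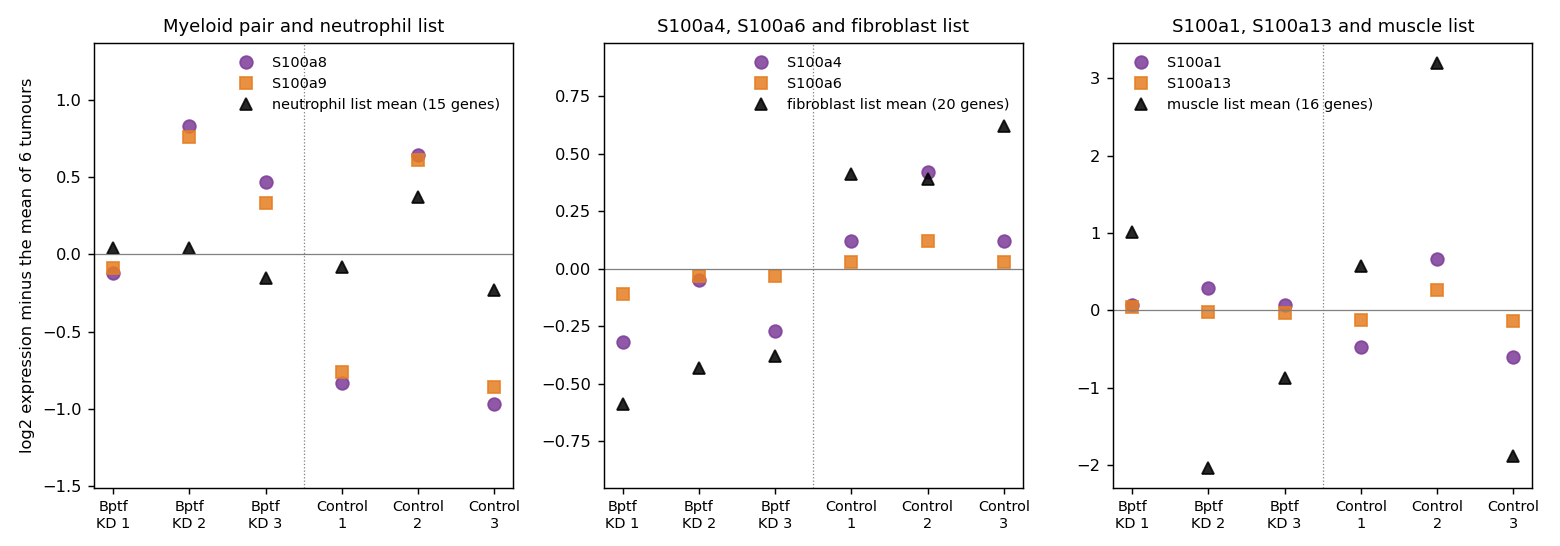
Log2 expression minus the mean of the 6 tumours (vertical axes, with their own ranges) for S100 genes and for the mean of a marker list (triangles), with 3 Bptf KD tumours left of the dotted line and 3 Control tumours right of it. S100a8 and S100a9 lie nearly on each other in every tumour, S100a4 is lower in all Bptf KD tumours as the fibroblast list is, and the muscle list peaks in the tumour labelled Control 2.

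S100a4, the member tied to metastasis, was the one of the 7 tested members with an unadjusted p under 0.05. It read 13.95, 14.22 and 14 in Bptf KD 1, 2 and 3, against 14.39, 14.69 and 14.39 in Control 1, 2 and 3. All 3 Bptf KD tumours lay below all controls. The means were 14.06 ± 0.14 and 14.49 ± 0.17 in Bptf KD and Control tumours (SD, n = 3 each), a difference of -0.43 (SE 0.14, 95% interval -0.77 to -0.09) and a ratio of 0.741. After adjustment over all genes it did not pass (adjusted p = 0.266 in limma), nor without the tumour labelled Control 2 (-0.33, adjusted p = 0.146 in limma). It passed with array weights (-0.37, adjusted p = 0.0365 in limma), where limma called 18.2% of all genes. Across the 15 alternatives, array weights among them, S100a4 had adjusted p from 0.0365 to 0.665 in limma. Each tumour left out in turn gave -0.52 to -0.33.

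S100a6, a partner of Cacybp and Sugt1 whose gene lies close to S100a4 on chromosome 3, also lay lower in each Bptf KD tumour, by very little. It read 14.56, 14.64 and 14.64 in Bptf KD tumours, against 14.70, 14.79 and 14.70 in Control 1, 2 and 3. The difference of -0.12 (SE 0.11, 95% interval -0.37 to 0.14) did not pass (adjusted p = 0.711 in limma). S100a4 and S100a6 were the 2 of 7 tested members whose groups do not overlap, where 20.0% of all genes tested had such groups, and 8.17% of all genes had them with Bptf KD lower. S100a10, the annexin partner, read 14.05, 14.12 and 13.93 in Bptf KD tumours, against 14.04, 14.34 and 14 in Control 1, 2 and 3. The groups overlap, and the difference was -0.09 (95% interval -0.42 to 0.24, adjusted p = 0.830 in limma). Its other probe set gave -0.20. The highest value on any array was 15.17, so these 3 genes lie near the upper end of the scale, and whether their probes were saturated is not recorded in RMA values.

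Fibroblast markers had lower means in the same 3 tumours as S100a4. All 20 tested had negative differences with a median of -0.86, beside 0.06 over all genes, and limma called 5 of them lower, among them the collagens Col1a1 (-1.81), Col3a1 (-0.91) and Col6a3 (-1.22) and the proteoglycan Dcn (-1.70), with adjusted p from 0.0385 to 0.0435. Without the tumour labelled Control 2 it called 11 of the 20. The list mean was 10.33, 10.49 and 10.54 in Bptf KD tumours, against 11.33, 11.31 and 11.54 in Control 1, 2 and 3. Bptf KD 1 was the lowest of the 6 tumours for both the list and S100a4. Among the controls the tumour labelled Control 2 had the lowest list mean and the highest S100a4 value. All 10 tested adipocyte markers were negative too, with a median of -2.75 and 6 called lower by limma, among them the fatty acid-binding protein gene Fabp4 (-2.85). Their part in the S100a4 values was not tested. The genes nearest to S100a4 over the 6 tumours were Tbcel at 0.059 log2 units, Lmna, which codes for nuclear lamins, at 0.063 and Hic1, a transcriptional repressor, at 0.070, where S100a4 spanned 0.74.

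S100a1, a regulator of calcium handling in striated muscle, was highest in the tumour labelled Control 2 and lowest in the other controls. Its brighter probe set read 10.05, 10.28 and 10.05 in Bptf KD 1, 2 and 3, against 9.51, 10.64 and 9.38 in Control 1, 2 and 3. The groups overlap through the tumour labelled Control 2 alone. The difference was 0.28 (SE 0.33, 95% interval -0.50 to 1.06) and did not pass (adjusted p = 0.779 in limma). The dimmer probe set showed the same arrangement, with 9.06, 9.20 and 8.93 in Bptf KD tumours, against 8.67, 9.72 and 8.33 in Control 1, 2 and 3. Across the alternatives to the comparison of all tumours the brighter one had adjusted p from 0.0228 to 0.979 in limma. Leaving out the tumour labelled Control 2 is among these alternatives. Without that tumour the brighter one was 1.60-fold higher in Bptf KD tumours (0.68, 95% interval 0.39 to 0.98, adjusted p = 0.0364 in limma). That tumour held the highest S100a1 value, so its omission raises the difference.

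The muscle list did not order the tumours as S100a1 did. Its mean over 16 genes was 9.35, 6.30 and 7.46 in Bptf KD 1, 2 and 3, against 8.90, 11.53 and 6.45 in Control 1, 2 and 3. Bptf KD 2 had the lowest muscle mean of the 6 tumours and the highest S100a1 value of the Bptf KD tumours. Both were highest in the tumour labelled Control 2, and the part of muscle in the S100a1 values of any tumour was not tested. All 16 muscle genes had negative differences, with a median of -1.27 and of 0.02 without that tumour, and limma called 0 (unadjusted p under 0.05 for 0). The 5 tested keratinocyte genes had a median of -0.68 and of 0.32 without that tumour, with 0 called by limma (unadjusted p under 0.05 for 0). The genes nearest to S100a1 were the small heat shock protein gene Hspb2 at 0.067, Rnf227 at 0.081 and Rdh14, a retinol dehydrogenase, at 0.082, where S100a1 spanned 1.26.

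S100a13, which helps export the growth factor Fgf1, shares its promoter stretch with S100a1 and varied much less. It read 10.38, 10.32 and 10.31 in Bptf KD tumours, against 10.22, 10.61 and 10.20 in Control 1, 2 and 3. As for S100a1, the tumour labelled Control 2 was highest and the other controls lowest, while the order of the Bptf KD tumours was another. The difference was -0.01 (SE 0.15, 95% interval -0.35 to 0.34, adjusted p = 0.992 in limma), and 0.13 without the tumour labelled Control 2 (adjusted p = 0.461 in limma). Over the 6 tumours S100a13 was closest to S100a10 among the members, at 0.074, and lay 0.316 from S100a1. For S100a6, S100a10 and S100a13, which spanned at most 0.41 log2 units, the 3 nearest genes each lay 0.020 to 0.036 away.

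**Figure D3:**
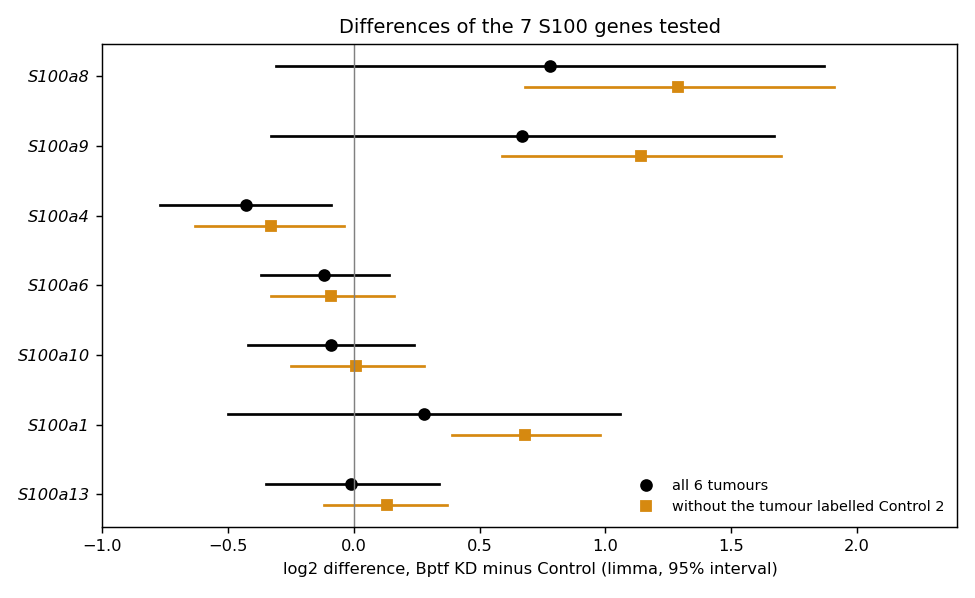
Log2 difference, Bptf KD minus Control (horizontal axis), with 95% limma intervals for the 7 S100 genes tested, with all 6 tumours (black circles) and without the tumour labelled Control 2 (orange squares). The intervals of S100a8, S100a9 and S100a1 lie above 0 without that tumour only, and those of S100a4 lie below 0 in both settings.

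S100a3 and S100b were dim. S100a3, a hair cuticle protein, read 5.55, 5.74 and 5.38 in Bptf KD tumours, against 5.75, 6.19 and 5.52 in Control 1, 2 and 3, so the groups overlap. Without the filter its difference was -0.26 (adjusted p = 0.666 in limma). Of 12 hair follicle genes 5 were tested, with a median of -0.07, 0 called by limma (unadjusted p under 0.05 for 0). S100b, the member known from Schwann cells, astrocytes and fat cells, read 5.95, 5.86 and 6.0 on its brighter probe set in Bptf KD tumours, against 5.82, 6.44 and 5.97 in Control 1, 2 and 3. Its difference without the filter was -0.14 (adjusted p = 0.821 in limma). The dimmer probe set read 4.48, 4.34 and 4.45 in Bptf KD tumours, against 4.64, 4.89 and 4.96 in Control 1, 2 and 3. There the groups do not overlap and the difference was -0.41 (adjusted p = 0.265 in limma over all probe sets with 1 gene). At such levels RMA values carry no detection call, and how much is background is not known. Of 8 tested Schwann cell and nerve genes 4 were positive, with a median of -0.02 and 0 called by limma (unadjusted p under 0.05 for 2 lower). Of these 2, Scn7a read 5.65 to 5.79 in Bptf KD tumours, below the dim level of 6.09, and passed the filter only through the controls. The adipocyte list had a median of -2.75, beside 0.06 over all genes, with 6 of 10 called lower by limma. The part of either cell type in the S100b values was not tested.

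Receptors and binding partners of the family had a median difference of 0.02, beside 0.06 over all genes. Of 26 listed, 21 were tested, 11 of them positive, with 0 called by limma (unadjusted p under 0.05 for 2 higher and 1 lower). Of the receptors of released calprotectin, Tlr4 read 9.20, 9.17 and 9.07 in Bptf KD tumours, against 8.91, 8.92 and 8.74 in Control 1, 2 and 3. Its difference of 0.29 did not pass (adjusted p = 0.351 in limma), and Bsg, a receptor for S100a9, differed by 0.34 (adjusted p = 0.359 in limma). Ager, the other classical receptor, differed by 0.02 (adjusted p = 0.965 in limma). Myh9, the myosin chain bound by S100a4, read 11.45, 11.52 and 11.57 in Bptf KD tumours, against 12.22, 11.58 and 12.04 in Control 1, 2 and 3. Its difference of -0.43 did not pass (adjusted p = 0.366 in limma) and passed without the tumour labelled Control 2 (-0.62, adjusted p = 0.0381 in limma). That tumour had the lowest Myh9 of the controls, which again lowers the p without it. The S100a10 partner Anxa2 differed by -0.09 and the urokinase receptor Plaur by -0.24.

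Of 9 other listed S100 genes and relatives 5 had a probe set and 3 were tested, with 0 called by limma (unadjusted p under 0.05 for 0). S100a14 and S100a16 were arranged over the tumours much as S100a1 was. S100a16 read 10.89, 10.82 and 11.14 in Bptf KD tumours, against 10.37, 11.41 and 10.60 in Control 1, 2 and 3, a difference of 0.16 (adjusted p = 0.858 in limma). S100a14 read 7.09, 6.36 and 6.26 in Bptf KD tumours, against 6.09, 7.42 and 6.07 in Control 1, 2 and 3, a difference of 0.04 (adjusted p = 0.981 in limma). In both the tumour labelled Control 2 was highest and Control 1 and 3 lowest, and neither passed without that tumour (0.47 and 0.49). S100pbp, which codes for a protein that binds S100 proteins, was lowest in the tumour labelled Control 2, at 7.63. In chromosome order the differences of tested genes were 0.28 for S100a1, -0.01 for S100a13, 0.04 for S100a14, 0.16 for S100a16, -0.43 for S100a4, -0.12 for S100a6, 0.78 for S100a8, 0.67 for S100a9 and, further along, -0.09 for S100a10. None of these passed in limma with all tumours. Other EF-hand and calcium-handling genes, 18 tested, had a median of -0.02 and 0 called by limma, with 3 lower at an unadjusted p under 0.05, among them Rcn3, a protein of the endoplasmic reticulum, at -0.77 (adjusted p = 0.0902 in limma).

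**Figure D4:**
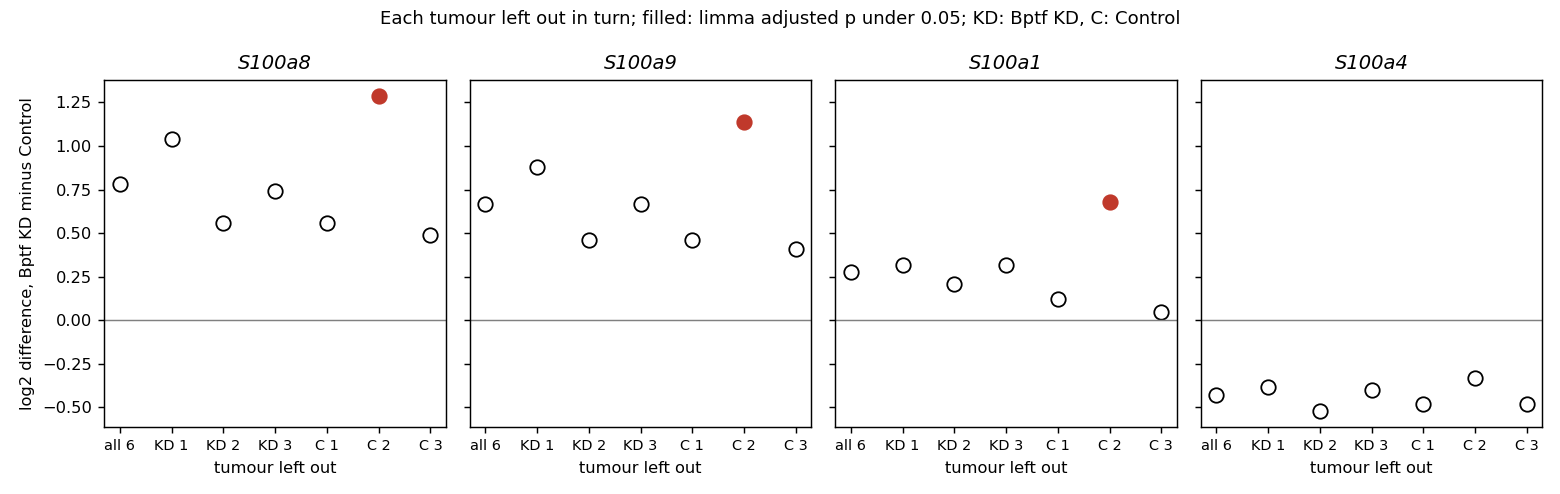
Log2 difference, Bptf KD minus Control (vertical axis), with all 6 tumours and with each tumour left out in turn (horizontal axis) for S100a8, S100a9, S100a1 and S100a4, filled where the limma adjusted p is under 0.05. Calls appear for S100a8, S100a9 and S100a1 only without the tumour labelled Control 2, and S100a4 stays between -0.52 and -0.33 without a call.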

How the data were processed

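Gene expression was measured in 3 Bptf KD and 3 Control tumours from 500 ng of total RNA each. The authors deposited log2 values from RMA, which the submitters' processing notes name without a version. That the base is 2 was taken from RMA itself. Probe sets were named from GEO's platform annotation with symbols checked by Entrez identifier against RefSeq (GRCm38.p6). The brightest probe set stood for a gene, and the dimmest 30% of probe sets by mean were not tested. Groups were compared by lmFit and eBayes of limma 3.58.1 (R 4.3.3) without covariates, p-values were adjusted over all 9249 genes by Benjamini-Hochberg, and 0.05 was the threshold. The procedure was tested on simulated data, with normal noise of the same spread in both groups and no array that stood apart. There it found 59.4% of changes of 1 log2 unit and 90.4% of 2, and 5.15% of its calls were false. How it does with an array such as that of the tumour labelled Control 2 was not tested. Likeness of genes is the root mean square difference of centred log2 values. The tumours are biological triplicates per the labels, and the sources used here do not say whether they come from separate mice, so p-values measure the spread between these samples. Precision is limited by the number of arrays. The alternatives were other filters, other rules for the probe set, other scaling, a trended robust eBayes, weights per array, a replicate block and leaving out each tumour. Named genes are all members, Bptf, for each list up to 4 genes, ranked by p, and the 3 nearest to each member tested. Genes named outside this rule (Ager, Anxa2, Chil3 and the dim neutrophil genes) were added with their values known. The members and lists were chosen with earlier results of these data known.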

Additional observations from a re-analysis of the deposited data

How the results depend on the processing

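limma called 0 of the 7 members with all tumours (1 at an unadjusted p under 0.05) and in 13 of 15 alternatives, with 0 to 4 members at an unadjusted p under 0.05 over all 15. It called 4 with array weights (S100a8, S100a9 and S100a1 higher, S100a4 lower), and 0 to 3 when each tumour was left out, the 3 without the tumour labelled Control 2. The median member difference stayed within the spread between tumours (SD 0.23) in all 15. S100a1, S100a4, S100a6, S100a8 and S100a9 kept their direction in all 15. S100a10 changed sign with array weights (0.02) and ran from -0.16 to 0.01 with a tumour left out. S100a13 changed sign with array weights (0.13) and ran from -0.08 to 0.13 with a tumour left out, where it was 0 without Bptf KD 2 and 0.01 without Bptf KD 3. The cause of these changes was not tested. Over all genes the 75 calls became 42 when the lowest 50% of probe sets were left out, 1680 with array weights, and 0 to 412 with a tumour left out, the 412 without the tumour labelled Control 2. Omitting Bptf KD 1 gave 2, Bptf KD 2 gave 6, Bptf KD 3 gave 0 (742 with unadjusted p under 0.05) and Control 3 gave 10. Same-numbered tumours had correlations of 0.006, 0.279 and 0.372 between their deviations from the group means, and not every tumour correlated best with its own number, so the numbers were not taken as pairs. With the replicate block 107 genes and 0 members were called (3 members at an unadjusted p under 0.05), and the median member difference was -0.01.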

Other observations

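Further marker lists describe the tissue in which the S100 genes were read. Of 12 tested epithelial genes 11 had positive differences, with a median of 0.74 and 0 called by limma (5 higher at an unadjusted p under 0.05), among them the claudin gene Cldn4 (1.86) and the occludin gene Ocln (1.67). Of 10 endothelial genes 5 were positive, with a median of -0.01, and the angiopoietin receptor Tek was called lower (-1.30, adjusted p = 0.00987 in limma). Tek read 5.65, 5.66 and 5.63 in Bptf KD tumours, against 6.99, 6.79 and 7.06 in Control 1, 2 and 3. Its Bptf KD values lay below the dim level of 6.09, so it passed the filter only through the controls. Without the tumour labelled Control 2, the clotting factor carrier Vwf was called lower as well (-1.19, adjusted p = 0.0229 in limma).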
